A study of Mus musculus with 79 samples.

Results

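The laminin chains and integrin subunits are described here in the injured and repaired mouse tibial nerve. Members were the rows of the count tables whose symbol is Lama, Lamb or Lamc with a number, Itga with a number or a letter, or Itgb with a number. This gave 37 of 23361 genes, of which 11 encode laminin chains, 18 encode integrin alpha subunits and 8 encode integrin beta subunits. RNA was sequenced from macrophages and Schwann cells sorted from the regenerative bridge 5 and 14 days after repair, and from the distal stump 5 days after repair. All mice, of both sexes, carried GFP under the human S100β promoter, and their age is not given in the sources used here. The common peroneal nerve was joined to the tibial nerve in a silicone conduit, either at once (immediate repair) or after the tibial nerve had been cut and left unrepaired for 8 weeks (delayed repair). For its immediate group the paper describes an earlier incision that exposed the sciatic trunk and was closed again 8 weeks before the nerve surgery. There were 79 libraries from 32 animals, with 1 bridge per animal and no pooling. The stump samples carry the bridge in their tissue label and the stump in their title and cell type label, and were taken as stump. Macrophages gave 9 delayed and 8 immediate libraries at day 5, and 7 and 8 at day 14. Schwann cells gave 9 and 7 at day 5, and 7 and 8 at day 14, and the stump gave 9 and 7. Each sorted library was made from 1000 cells with an amplified cDNA kit, while the stump libraries were made from rRNA-depleted RNA, so the stump was not tested against the sorted cells. Macrophages were sorted as positive for F4/80, CD14, CD16/32 and CD11b, and Schwann cells as GFP+ and negative for all of these, so that Itgam, which encodes CD11b, was part of the gate. Cells stained for markers of lymphocytes, granulocytes, fibroblasts, endothelial cells or red blood cells were left out of both sorts.

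Laminins are secreted trimers of an alpha, a beta and a gamma chain, and they form the basal lamina that each Schwann cell lays down around itself and its axon. Integrins are receptors of an alpha and a beta subunit in the cell membrane. Schwann cells hold laminin through the integrins α6β1, α6β4 and α7β1 and through dystroglycan, and contact with laminin is needed for axon sorting and myelination. Leukocytes carry other integrins, chiefly those with the β2 subunit, which bind cell surface ligands and complement.

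Levels are CPM (the gene's share of the counts of its library, scaled to the same total in each) after TMM scaling, which adjusts for differences in composition between libraries, and groups are given by their lowest, median and highest library. Tests were edgeR's quasi-likelihood test, with p-values adjusted by Benjamini-Hochberg over every gene that reached 5 CPM in 6 or more of the compared libraries. Fold changes are log2 with their standard error (SE), and a gene was called at an adjusted p under 0.05. Total counts per library ran from 3898778 to 9212709 in the stump, from 14928746 to 28499407 in macrophages and from 11614940 to 30796824 in Schwann cell libraries.

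The Schwann cell libraries did not hold Schwann cell transcripts alone. In CPM by total count, Sox10, the defining transcription factor of Schwann cells, ran from 0 to 161 CPM (median 20.3) at day 5 and from 13.7 to 199 CPM (median 126) at day 14. In the same libraries Ccr7, a dendritic cell gene, ran from 5570 to 9710 CPM at day 5 and from 2410 to 9820 CPM at day 14, against 1.59 to 72.1 CPM in the macrophage libraries of day 5. Col1a1, a fibroblast collagen, ran from 0.687 to 1830 CPM at day 5 and from 128 to 5230 CPM at day 14. Sox10 was below 5 CPM in delayed day 5 replicates 1, 3, 4 and 9, and comparisons that rest on these are also given without them. The immediate day 14 Schwann cell replicates 3 and 5 held 8090 and 1340 CPM over 4 neutrophil genes, and the delayed stump replicate 5 held 2200 CPM over 5 skeletal muscle genes. The number of members called went from 12 to 10 without that stump library. "Schwann cell libraries" below means libraries sorted under that gate. In sorted and whole-tissue samples alike, fewer cells of a type and less RNA per cell cannot be told apart.

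The stump expressed most of the family, the Schwann cell libraries fewer, and macrophages carried integrins and, of the laminins, mainly the γ1 chain. The median over all libraries reached 5 CPM for 7 of 11 laminin chains and 24 of 26 integrins in the stump, for 5 and 19 in Schwann cell libraries, and for 1 and 13 in macrophages. The single laminin of the macrophages was Lamc1, the γ1 chain, at 20.8 to 131 CPM (median 59.3) and above 0 in 32 of 32 libraries. It made up 90.5% to 94.2% of the summed laminin level per kilobase in the 4 macrophage groups, a sum of 8.53 (SD 1.99, n = 9) after delayed and 11.0 (SD 4.23, n = 8) after immediate repair at day 5. Lama2 was at 0 in 30 of 32 macrophage libraries, and Lama4 and Lamb1 were each at 0 in 16. Lama3 and Lamc3 were at 0 in all 31 Schwann cell libraries, where 3 counts would be 0.0974 to 0.258 CPM.

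Levels of different genes were compared per kilobase of exon, counting each base that is exon in any transcript of the gene. This length is 12068 bases for Lama4 and 9917 for Lamb1, against 6046 and 5784 in their longest transcripts. For Lamc1 it is 8272 against 7622, so the order of the chains depends on the length used. In the stump after immediate repair, the order of the laminin chains was Lamc1 at 69.6 (SD 7.74), Lamb2 at 64.8 (SD 18.6), Lamb1 at 54.5 (SD 5.41) and Lama4 at 41.3 (SD 2.14) CPM per kilobase. Lama2 followed at 14.4 (SD 3.45) and Lama5 at 10.8 (SD 3.50). The steps between Lamc1, Lamb2 and Lamb1 were smaller than the larger SD of each pair, and the steps from Lamb1 to Lama4 and from Lama4 to Lama2 were larger. The summed laminin level per kilobase in the stump was 259 (SD 25.7, n = 7) after immediate and 245 (SD 21.6, n = 9) after delayed repair. Among integrins Itgb1, the β1 subunit shared by most laminin and collagen receptors, was highest per kilobase in the stump, at 270.4 (SD 47.7) after immediate and 248 (SD 43.2) after delayed repair. The highest alpha subunit per kilobase was Itga7 after immediate repair, at 59.7 (SD 21.7), not separated from Itgam at 51.2 (SD 23.3) by more than the SD, and Itgam after delayed repair, at 77.6 (SD 17.2). Itga7 has 8092 bases of exon and 4020 in its longest transcript, against 5024 and 4682 for Itgam. The step between Itga7 and Itgam therefore depends on the length used as well.

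In macrophages the order per kilobase at day 5 was led by Itgb2, the β2 subunit, at 458 (SD 78.7, n = 8) after immediate repair. It was followed by Itgb1 at 238 (SD 26.5), Itgam at 178 (SD 18.8) and Itga5, the fibronectin receptor subunit, at 113 (SD 24.9) CPM per kilobase, each step being larger than the larger SD. In Schwann cell libraries Itgb1 led in each group, from 234 to 274 CPM per kilobase, and Itga5 was the highest alpha subunit. The summed laminin level per kilobase of the Schwann cell libraries was 18.7 (SD 8.26, n = 7) at day 5 and 32.9 (SD 14.9, n = 8) at day 14 after immediate repair. After delayed repair it was 9.5 (SD 5.98, n = 9) at day 5 and 45.4 (SD 27.0, n = 7) at day 14. Between neighbours in the order of levels, the step exceeded the larger SD in 23 of 70 pairs in the stump, in 33 of 140 in macrophages and in 10 of 140 in Schwann cell libraries, so most places in the Schwann cell order are not separated.

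**Figure D1:**
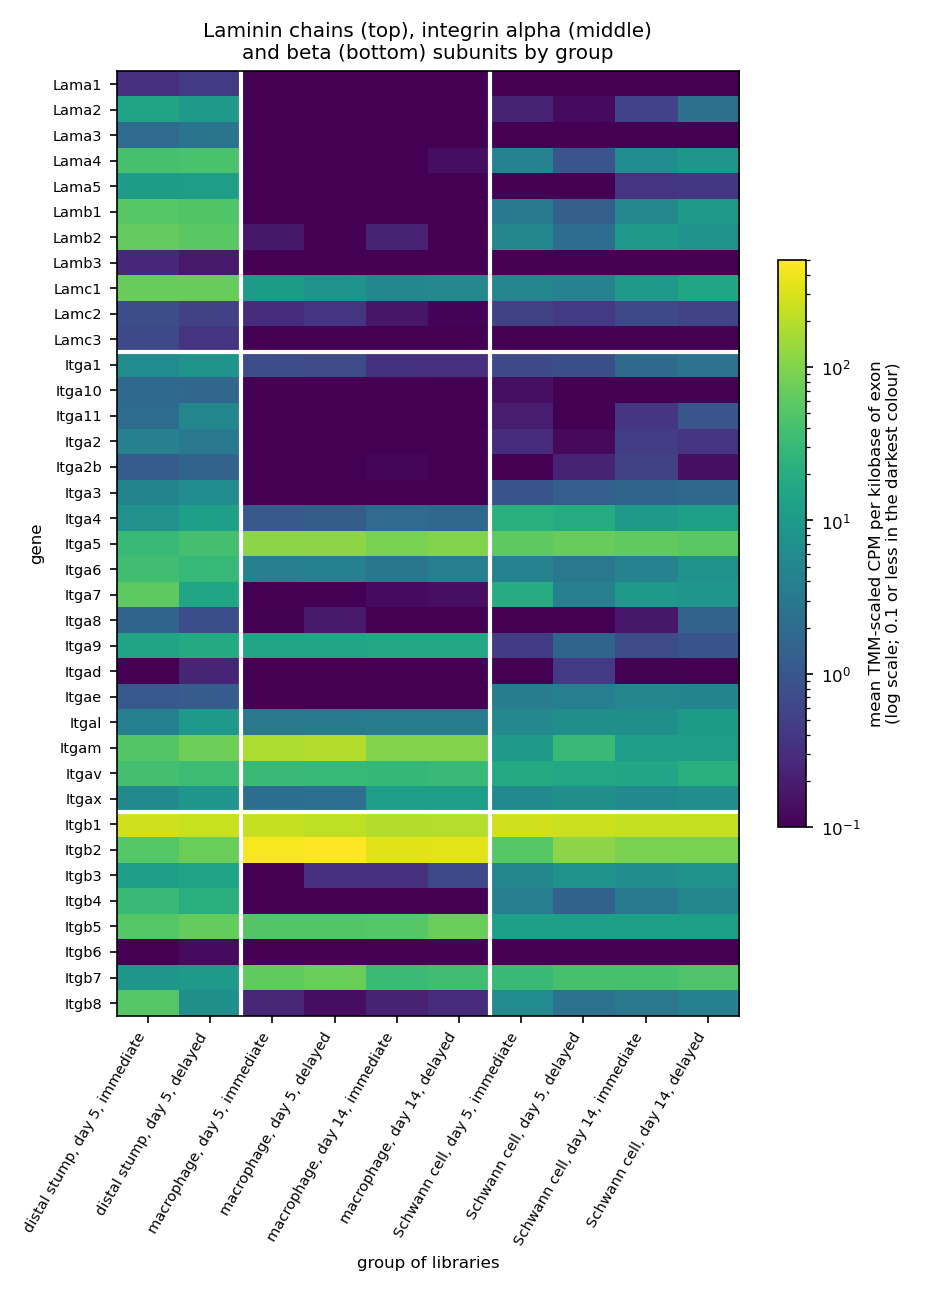
Mean level per kilobase of exon of each laminin chain and integrin subunit (rows) in each group of libraries (columns), as colour on a log scale. Itgb1 is high in every column, while the laminin rows other than Lamc1 are near 0 in the macrophage columns.

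The first comparison asked how the stump differed after delayed repair. Of the 32 members tested in the stump, 12 were called, 7 higher and 5 lower after delay, beside 26.3% of all 12229 genes tested, 12.8% higher and 13.5% lower. The median log2 fold change was 0.15 over these members and 0.02 over all genes. Itgad, Itgb6, Lama1, Lamb3 and Lamc3 were too low to be tested.

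The laminin chains of the stump differed little between repair groups, and 1 of the 8 tested was called, with a median log2 fold change of -0.06. Lamc1 (chr1:153218922-153332786, minus strand, GRCm38) had 497, 565 and 680 CPM after immediate and 449, 581 and 668 CPM after delayed repair, with a log2 fold change of -0.00 (SE 0.10, edgeR adjusted p = 0.984). Lama4 (chr10:38965515-39110188, plus strand), the α4 chain of endoneurial and vessel laminin, had 452, 507 and 532 CPM after immediate and 416, 529 and 620 CPM after delayed repair. For Lamb1, the β1 chain, these were 455, 547 and 603 CPM against 450, 482 and 584 CPM. These 3 chains overlapped between the groups, and the adjusted p in edgeR was 0.594 for Lama4 and 0.255 for Lamb1. Lama2 (chr10:26980036-27619758, minus strand), the α2 chain of Schwann cell basal lamina, was the exception. It had 166, 229 and 318 CPM after immediate and 93.2, 128 and 242 CPM after delayed repair. Its log2 fold change was -0.59 (SE 0.20, edgeR adjusted p = 0.0371), and 8 of 9 delayed libraries lay below the immediate mean although the ranges overlapped. The call was lost in 8 of the 16 fits that each left out 1 library.

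Of the laminin-binding list of Itga3, Itga6, Itga7, Itgb1 and Itgb4, edgeR called Itga7 alone, beside 26.3% of all genes. Itga7 (chr10:128933818-128958282, plus strand), the α7 subunit that pairs with β1 on Schwann cells and muscle, had 252, 546 and 661 CPM after immediate and 62.4, 114 and 265 CPM after delayed repair. Only the delayed replicate 7 reached into the immediate range. Its level was 4.02-fold higher after immediate repair in the fit, a log2 fold change of -2.01 (SE 0.27, edgeR adjusted p = 5.28e-05). Exons of Itga7 overlap those of Mettl7b on the opposite strand. The stump libraries were directional and were aligned with a strand setting, but it is not stated for the step that wrote the counts, so reads of Mettl7b may be part of this count. Itga6, the α6 partner of β1 and β4, had 229, 313 and 439 CPM after immediate and 173, 259 and 393 CPM after delayed repair, with a log2 fold change of -0.28 (SE 0.18, edgeR adjusted p = 0.264). Itgb4, the β4 subunit of mature Schwann cells and perineurium, had 122, 199.5 and 405 CPM against 73.1, 140.1 and 271 CPM, with a log2 fold change of -0.56 (SE 0.27, edgeR adjusted p = 0.135). Itgb1 had 824, 1114 and 1313 CPM after immediate and 774, 1033 and 1376 CPM after delayed repair, and its adjusted p in edgeR was 0.509. The ranges of Itga6, Itgb4 and Itgb1 overlapped. Itga1 and Itga2, which bind collagen and laminin, are described with the collagen receptors.

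Itgb8 (chr12:119158022-119238802, minus strand), which pairs with αv and releases active TGF-β, had the largest difference of the members. It had 352, 590.3 and 913 CPM after immediate repair and 26.2, 57.7 and 164 CPM after delayed repair, so the 2 groups did not overlap. The log2 fold change was -2.96 (SE 0.35, edgeR adjusted p = 1.58e-05). Without delayed replicate 7, which had the highest Itga7 level of the delayed libraries, the log2 fold change was -3.19 for Itgb8 and -2.25 for Itga7. Itgav, its alpha partner, was not called, with a log2 fold change of -0.27 (SE 0.14). Itga8, another RGD-binding subunit, had 6.55, 11.0 and 20.3 CPM after immediate and 2.74, 4.44 and 15.8 CPM after delayed repair, with a log2 fold change of -0.97 (SE 0.33). It reached 5 CPM in 7 of 7 immediate and 3 of 9 delayed libraries and was thus tested only through the group where it is high, so its call is not evidence of a difference. In the other direction, Itgb5, a vitronectin receptor subunit, had 156, 190 and 226 CPM after immediate and 182, 232 and 294 CPM after delayed repair, and Itga5 had 133, 157 and 184 CPM against 119, 207 and 242 CPM. Their log2 fold changes were 0.32 (SE 0.10, edgeR adjusted p = 0.0241) and 0.36 (SE 0.13, edgeR adjusted p = 0.0496).

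Itga4 (chr2:79255426-79333123, plus strand), the α4 subunit that binds VCAM-1 and fibronectin on leukocytes, was higher after delayed repair. Immediate libraries had 76.6, 107 and 131 CPM and delayed libraries 143, 165 and 216 CPM, without overlap. The log2 fold change was 0.71 (SE 0.12, edgeR adjusted p = 0.000514). Itgal, the αL subunit of LFA-1, had 15.4, 21.5 and 48.5 CPM after immediate and 20.7, 71.5 and 94.5 CPM after delayed repair, with a log2 fold change of 1.22 (SE 0.30, edgeR adjusted p = 0.00725). All 6 leukocyte integrins tested had a positive log2 fold change (median 0.54), and edgeR called Itgal alone. DESeq2 called Itgam and Itgax as well, and limma-voom Itgam, Itgax and Itgb2, as did edgeR without immediate replicate 4 or without immediate replicate 8. Itgam had 130, 243 and 440 CPM against 280, 346 and 511 CPM, with an edgeR adjusted p of 0.0631. Itgb2 had 73.4, 143 and 267 CPM against 190, 206 and 282 CPM, with an edgeR adjusted p of 0.105.

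Of the 4 collagen-binding alpha subunits, 2 were called higher and 1 lower after delay, beside 12.8% higher and 13.5% lower over all genes. Itga1, the α1 subunit that also binds laminin, had 86.8, 105 and 133 CPM after immediate and 118, 140.5 and 203 CPM after delayed repair. All 9 delayed libraries were above the immediate mean of Itga1, with a log2 fold change of 0.48 (SE 0.12, edgeR adjusted p = 0.00843). Itga11 had 4.88, 7.95 and 23.8 CPM against 5.21, 20.4 and 58.6 CPM, a log2 fold change of 1.28 (SE 0.45), while Itga2 had 21.8, 29.9 and 37.0 CPM against 15.7, 21.3 and 30.5 CPM, a log2 fold change of -0.42 (SE 0.15). These calls, with edgeR adjusted p of 0.0438 and 0.0406, were lost in 12 and 10 of 16 fits that left out 1 library. Itga9, which binds tenascin-C and osteopontin, had 90.8, 118 and 132 CPM against 108, 139 and 163 CPM, with an edgeR adjusted p of 0.0204. Across these fits the calls of Itgb8, Itga7, Itga4, Itgal and Itga1 were lost in 0 of 16, and that of Itga5 in 12.

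**Figure D2:**
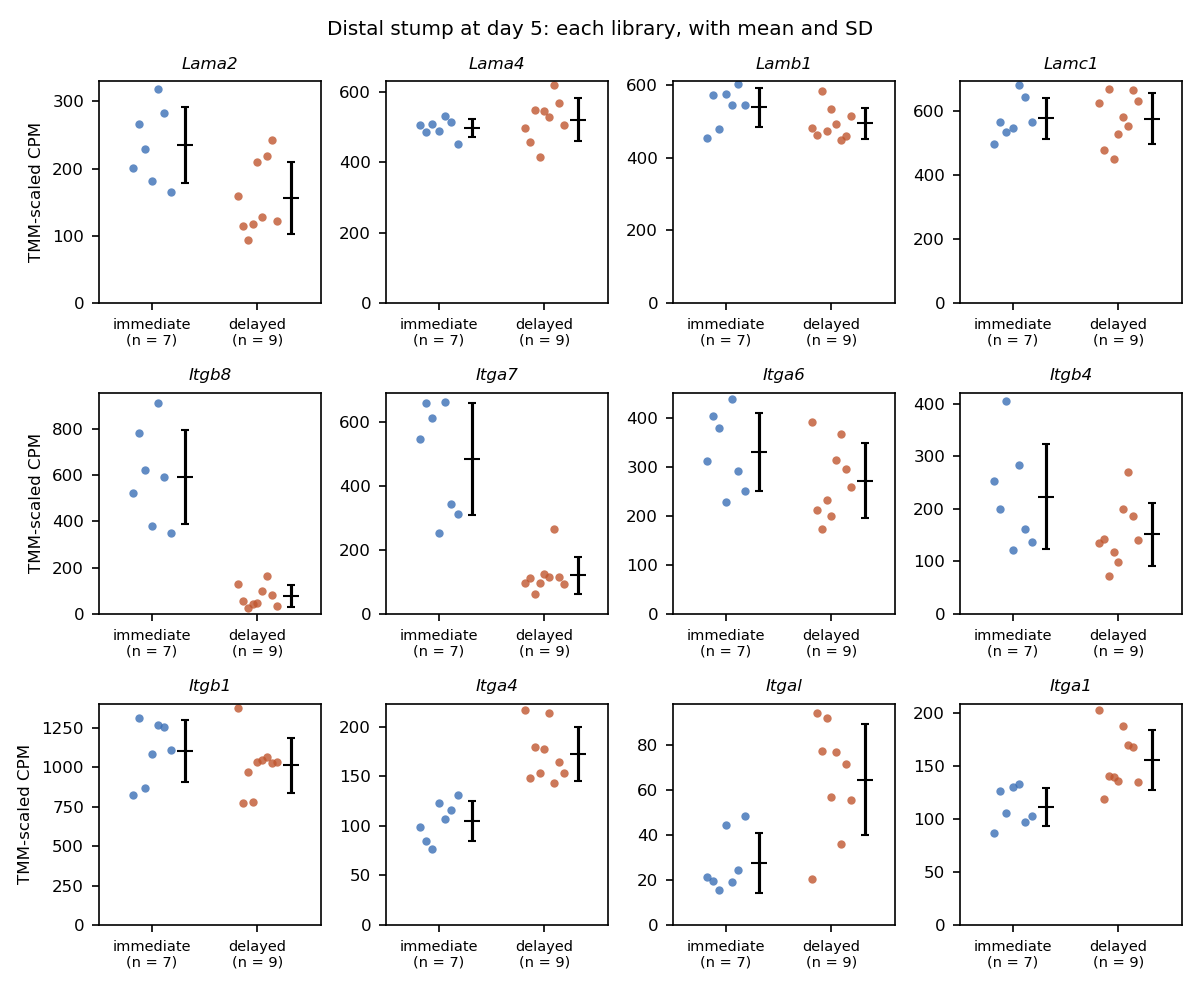
TMM-scaled CPM of 12 members in each distal stump library at day 5 (points), with mean and SD, for immediate (n = 7) and delayed repair (n = 9). Itgb8 and Itga4 do not overlap between the groups, in opposite directions, while Lamc1 and Lama4 lie at the same height in both.

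The other laminin receptor of Schwann cells, the dystroglycan complex, was mostly lower after delay. Of 14 genes of this complex and of other non-integrin laminin receptors, 13 were tested, 11 were lower after delay and 0 higher, beside 13.5% lower over all genes, with a median log2 fold change of -0.90 beside 0.02 over all genes. Whether each of these genes reached the filter in both repair groups was not examined. Dag1, which encodes both dystroglycan subunits, had 415, 748 and 944 CPM after immediate and 148, 182 and 313 CPM after delayed repair. Its groups did not overlap, with a log2 fold change of -1.78 (SE 0.19, edgeR adjusted p = 8.08e-06). Prx, the myelin protein periaxin that binds this complex through Drp2, had a log2 fold change of -1.60 (SE 0.21), while Dmd, dystrophin, fell by 1.54 (SE 0.21) on the log2 scale, without overlap between groups. The 2 tested genes of the list that were not called were Sgce at -0.30 and Dtnb at 0.25.

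Markers of several cell types moved with these differences in the stump. In CPM by total count, the sum of 10 Schwann cell genes was 1410, 2500 and 3260 CPM after immediate and 162, 348 and 917 CPM after delayed repair, and 8 of the 10 genes were lower. Sums were higher after delay for 8 macrophage genes, at 1930, 2510 and 3230 CPM against 910, 1410 and 2750 CPM, and for 10 dendritic cell genes, at 885, 1290 and 1640 CPM against 534, 808 and 1350 CPM. The endothelial sum of 7 genes was 1060 to 1630 CPM after delayed and 693 to 958 CPM after immediate repair. The mural cell sum of 7 genes was 1030 to 1420 CPM after delayed and 659 to 918 CPM after immediate repair. The T cell sum of 5 genes was 4.82, 7.82 and 29.2 CPM after immediate and 12.8, 34.2 and 68.3 CPM after delayed repair, and the neutrophil sum of 4 genes had medians of 102 and 189 CPM. The lower Itga7, Itgb8, Lama2 and Dag1 thus came with lower Schwann cell genes, and the higher Itga4, Itgal and Itga1 with higher leukocyte and vessel genes. The part of these cell types in the differences was not tested.

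**Figure D3:**
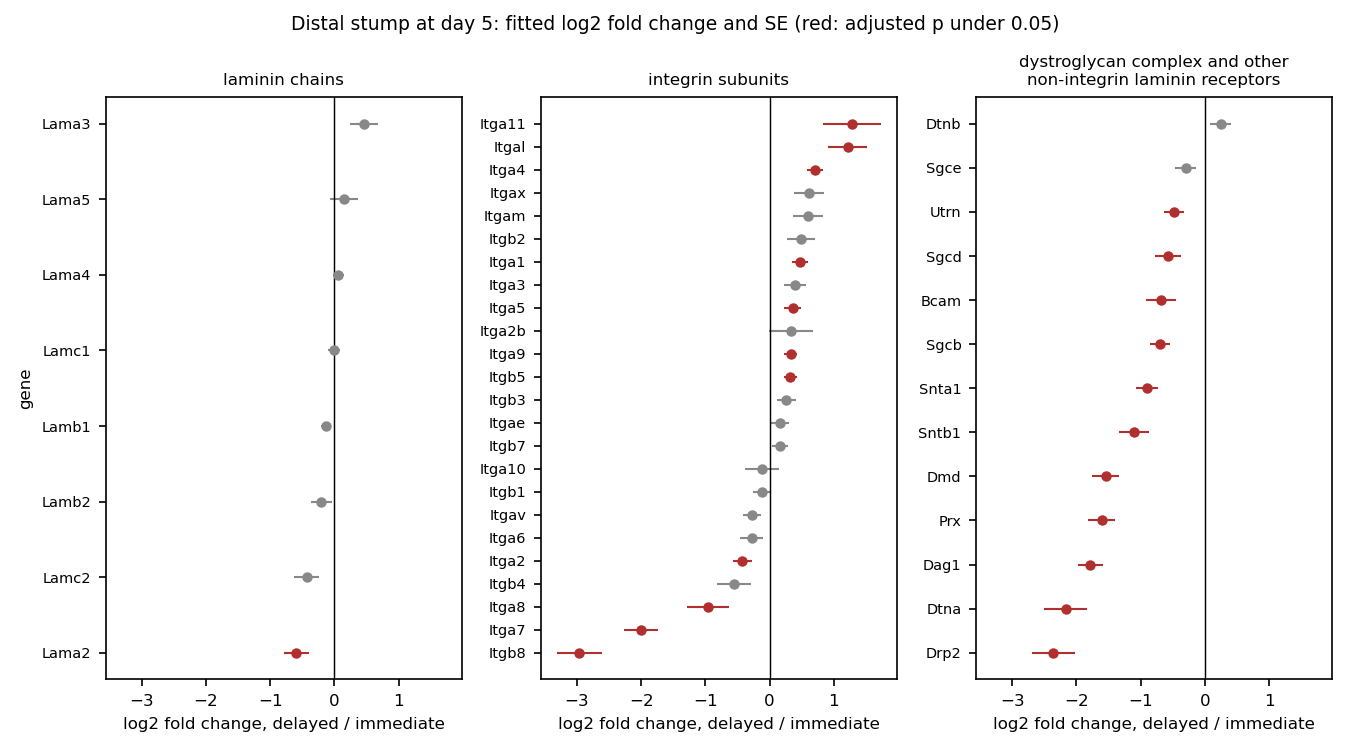
Fitted log2 fold change, delayed over immediate, with SE, in the distal stump at day 5 for laminin chains, integrins and the other laminin receptors, with called genes in red. The laminin chains lie near 0 with Lama2 the one called, whereas Itgb8 (-2.96), Itga7 (-2.01) and Dag1 (-1.78) lie far to the left.

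The second comparison set Schwann cell against macrophage libraries within a day, with the repair group in the fit. At day 5, 20 of the 24 members tested were called, 12 higher and 8 lower in Schwann cell libraries, beside 65.3% of all genes, 35.6% higher and 29.7% lower. At day 14 it was 25 of 26, 18 higher and 7 lower, beside 64.7% of all genes, 37.1% higher and 27.6% lower. With library size scaling in place of TMM the split was 13 higher and 7 lower at day 5, and 19 higher and 4 lower at day 14. Of the members tested, 10 at day 5 and 12 at day 14 fell short of the filter in macrophages and were tested only through their level in Schwann cell libraries, so they had to differ and these counts are no evidence of a difference between the cell types. The count at day 5 was again 20 without the libraries low in Sox10.

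Among the laminin receptor subunits, Itga7, Itgb4 and Itga3 were at or near 0 in macrophages, while Itga6 and Itgb1 were not. Itga7 had 0.414, 25.9 and 369 CPM in Schwann cell libraries of day 5 and 0, 0.378 and 2.30 CPM in macrophages. At day 14 it had 25.4, 57.5 and 141 CPM against 0.429, 0.974 and 2.85 CPM, without overlap. The fitted log2 fold change was 7.50 (SE 0.78) at day 5, 7.85 without the libraries low in Sox10, and 6.10 (SE 0.33) at day 14, given as a description since Itga7 was tested only through its level in Schwann cell libraries. Itgb4 had 2.81, 26.1 and 72.1 CPM at day 14 against 0, 0.0557 and 0.935 CPM, a log2 fold change of 7.78 (SE 0.59). Itga3, the α3 subunit of another laminin receptor, was at 0 in all 17 macrophage libraries of day 5, where 3 counts would be 0.105 to 0.201 CPM, and had 0, 6.24 and 13.3 CPM in Schwann cell libraries. By contrast Itga6 was not called at day 5, with 0, 36.2 and 64.5 CPM in Schwann cell libraries and 9.63, 35.6 and 60.1 CPM in macrophages. At day 14 Itga6 had a log2 fold change of 0.85 (SE 0.28). Itgb1 had 811, 1064 and 1361 CPM against 301, 960.4 and 1142 CPM at day 5, where its adjusted p in edgeR was 0.0812, or 0.0284 with the animal as a block (log2 fold change 0.24), and a log2 fold change of 0.33 (SE 0.08) at day 14.

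Of the 7 laminin chains tested at day 14, Lamc1 alone reached the filter in macrophages, and the other 6 were tested only through their level in Schwann cell libraries, so their values are given without a test. Lama4 had 25.1, 75.0 and 186 CPM in Schwann cell libraries and 0, 0.595 and 8.49 CPM in macrophages, a log2 fold change of 6.26 (SE 0.62). Lamb1 had 10.2, 58.5 and 220 CPM against 0, 0.757 and 3.28 CPM, and Lama2 1.55, 9.09 and 103 CPM against 0.449 CPM in 1 macrophage library and 0 in the other 14. These 3 chains did not overlap between the cell types. Lamc1 changed its order between the days. At day 5 it was lower in Schwann cell libraries, at 7.21, 35.2 and 88.6 CPM against 41.2, 66.8 and 131 CPM, a log2 fold change of -0.94 (SE 0.21, edgeR adjusted p = 0.000275), which was -0.83 (edgeR adjusted p = 0.00085) without the libraries low in Sox10. At day 14 it was higher, at 14.8, 89.5 and 195 CPM against 20.8, 37.5 and 98.5 CPM, a log2 fold change of 1.18 (SE 0.27, edgeR adjusted p = 0.000327). The difference between these 2 contrasts was itself not tested. The fibroblast sum of the Schwann cell libraries had medians of 603 CPM after delayed and 1590 CPM after immediate repair at day 5 and of 5080 and 7110 CPM at day 14, against 16.2 to 78.2 CPM in the macrophage groups, and its part in the Lamc1 level was not tested.

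Integrins of leukocytes did not all follow the macrophages. Itgam had 654, 878 and 1179 CPM in macrophages and 22.3, 65.1 and 443 CPM in Schwann cell libraries of day 5, a log2 fold change of -3.27 (SE 0.32) that the gate on CD11b sets in part. Itgb2, its beta partner, had 1043, 1474 and 2017 CPM against 54.2, 231 and 582 CPM, and Itga9 74.9, 109 and 180 CPM against 0, 6.38 and 43.8 CPM, neither overlapping. Itgb5 was likewise lower in Schwann cell libraries, by 2.02 (SE 0.20) on the log2 scale. Itga4, in contrast, had 146, 271 and 614 CPM in Schwann cell libraries of day 5 against 6.95, 14.9 and 35.9 CPM in macrophages, without overlap, with a log2 fold change of 4.12 (SE 0.23, edgeR adjusted p = 7.53e-17). Itgae, the αE subunit found on some dendritic cells and T cells, had 0, 12.2 and 67.1 CPM against 0, 0.110 and 0.338 CPM, and Itgb3 had 2.80, 40.0 and 103 CPM against 0, 0.170 and 7.54 CPM. Beside these, 10 dendritic cell genes summed to 25600 to 45600 CPM in the delayed and 27900 to 47300 CPM in the immediate Schwann cell libraries of day 5, against medians of 3050 and 2740 CPM in the 2 macrophage groups, and their part in the levels of Itga4, Itgae and Itgb3 was not tested. Itgal was called at day 5 with a log2 fold change of 1.04 and an edgeR adjusted p of 0.046, which became 0.53 and 0.452 with the animal as a block.

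Since Sox10 varied between the Schwann cell libraries, each member was set against it over the libraries of 1 day on the log2(CPM + 1) scale. Adjusted permutation p-values of Pearson's r are over all genes tested at that day. At day 5 (n = 16), 3 of 23 members passed an adjusted p of 0.05, all with positive r, beside 1.95% of 9603 genes. At an unadjusted p under 0.05 there were 7 members, beside 14.0% of all genes, so correlation with Sox10 was not rare in these libraries. Itga7 had r = 0.803 and Spearman's rho = 0.891, with a permutation p of 0.00015 and an adjusted p of 0.0167 for r. It had r = 0.874 without the 2 libraries farthest from the median of Sox10, and 0.845 and 0.847 within the delayed and immediate libraries. Lamb1 had r = 0.798 and rho = 0.862 (permutation p = 0.00036, adjusted 0.0288), and Lamb2 had r = 0.752 and rho = 0.638 (permutation p = 0.00086, adjusted 0.0461). Permutation p for rho was 3e-05 for Lamb1, 0.00895 for Lamb2 and 1e-05 for Itga7, the smallest the permutations can give. Without the 2 farthest libraries r was 0.933 for Lamb1 and 0.551 for Lamb2, and within the delayed and immediate libraries it was 0.753 and 0.861 for Lamb1 and 0.819 and 0.331 for Lamb2.

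Without the 4 libraries low in Sox10 (n = 12), 2 of 23 members passed, beside 1.47% of all genes. These were Lamb1, with r = 0.880 and an adjusted permutation p of 0.0192, and Itga7, with r = 0.872 and an adjusted permutation p of 0.0280, while Lamb2 had r = 0.540 and an adjusted permutation p of 0.413. Lamb2 also missed the threshold with TMM-scaled CPM over all 16 libraries (adjusted permutation p = 0.0744). Over all 16 libraries of day 5, Itgb4 had r = 0.731 (adjusted permutation p = 0.0581) and Lama4 r = 0.695 (adjusted permutation p = 0.0907), and they did not pass. Lamc1 had r = 0.410 and Itga6 r = 0.506, with adjusted permutation p of 0.507 and 0.325. At day 14 (n = 15), 0 of 26 members and 0 of 10225 genes passed. At an unadjusted p under 0.05 there were then 9 members, all with positive r, beside 13.2% of all genes, and the highest r was 0.748, that of Itgb8 (adjusted permutation p = 0.118).

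The third comparison was between the days, in different animals, within a repair group. In Schwann cell libraries after delayed repair, the laminin chains Lama4 and Lamc1 were higher at day 14 by edgeR. Of 25 members tested, 4 were called and all were higher, beside 8.09% of all genes called and 3.34% called higher. As a description of those tested, the 6 laminin chains had a median log2 fold change of 2.46, the 19 integrins one of 0.24 and all genes one of 0.03. Lama4 had 0, 13.6 and 27.9 CPM at day 5 and 33.5, 123 and 186 CPM at day 14, without overlap. Lamc1 had 7.21, 35.9 and 88.6 CPM at day 5 and 45.3, 155 and 195 CPM at day 14. The log2 fold change was 3.33 (SE 0.84) for Lama4 and 1.87 (SE 0.43) for Lamc1, with edgeR adjusted p of 0.0255 and 0.0173. Lama2 had 0, 0.0361 and 9.56 CPM at day 5 and 3.88, 38.8 and 103 CPM at day 14. It reached 5 CPM in 1 of 9 libraries of day 5 and 6 of 7 of day 14, so it was tested only through the day where it is high and its call is not evidence of a difference. The 1 integrin called was Itga1, at 0.410, 12.7 and 29.4 CPM at day 5 and 28.9, 51.6 and 60.8 CPM at day 14, with a log2 fold change of 1.78 (SE 0.46, edgeR adjusted p = 0.0296).

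Of the subunits of α6β1, α6β4 and α7β1, edgeR called none of Itga6, Itga7, Itgb1 and Itgb4 between these days. Itga7 had 5.15, 9.99 and 128 CPM at day 5 and 30.3, 49.5 and 124 CPM at day 14, with an edgeR adjusted p of 0.334. Itgb4 had 0, 5.22 and 37.6 CPM against 9.22, 33.2 and 72.1 CPM, and Itga6 had 0, 32.1 and 43.7 CPM against 16.4, 69.4 and 149.9 CPM, with edgeR adjusted p of 0.137 and 0.184. Lamb1 had 0, 7.54 and 40.9 CPM at day 5 and 22.1, 92.4 and 220 CPM at day 14, with an edgeR adjusted p of 0.0842. Itgb1 had 811, 1032 and 1361 CPM at day 5 and 723, 931 and 1148 CPM at day 14.

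The calls of the laminin chains depended on the test, as limma-voom called Itga1 alone of the 4. The composition of these libraries differed between the days as well. The sum of 10 Schwann cell genes had a median of 118 CPM (4.28 to 437) at day 5 and 1550 CPM (292 to 2270) at day 14 after delayed repair. The sum of 6 fibroblast genes had a median of 603 CPM (14.7 to 3240) at day 5 and 5080 CPM (1890 to 19900) at day 14. That of 8 macrophage genes was 1590 CPM (222 to 6070) at day 5 and had a median of 921 CPM at day 14. Without the 4 libraries low in Sox10, Lama4 alone of the members was called, beside 0.483% of all genes, with a log2 fold change of 3.20 and an edgeR adjusted p of 0.0288. The adjusted p in edgeR was then 0.124 for Lamc1, 0.0579 for Itga1 and 0.13 for Lama2, with log2 fold changes of 1.59, 1.35 and 3.37. Among the fits that left out 1 library, Lama2 lost its call in 12 of 16, Itga1 in 5, Lama4 in 2 and Lamc1 in 0.

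After immediate repair 1 of 25 members tested was called between the days in Schwann cell libraries, beside 3.81% of all genes, 3.10% in the same direction, lower at day 14. Itga4 had 203, 236 and 614 CPM at day 5 and 81.8, 136 and 227 CPM at day 14, with a log2 fold change of -1.09 (SE 0.26, edgeR adjusted p = 0.0295). All 8 libraries of day 14 lay below the day 5 mean, and the call was lost in 5 of 15 fits that left out 1 library. Lamc1 had 27.9, 34.6 and 62.8 CPM at day 5 and 14.8, 84.2 and 117 CPM at day 14, with an edgeR adjusted p of 0.0758. Lama4 had 6.45, 47.9 and 84.8 CPM against 25.1, 73.3 and 136 CPM, and Itga7 had 0.414, 135 and 369 CPM against 25.4, 75.7 and 141 CPM. The 6 laminin chains tested had positive log2 fold changes with a median of 0.90, beside 0.04 over all genes. In this group the Schwann cell sum had a median of 541 CPM at day 5 and 732 CPM at day 14, and the fibroblast sum medians of 1590 and 7110 CPM. Their part in the laminin levels was not tested.

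**Figure D4:**
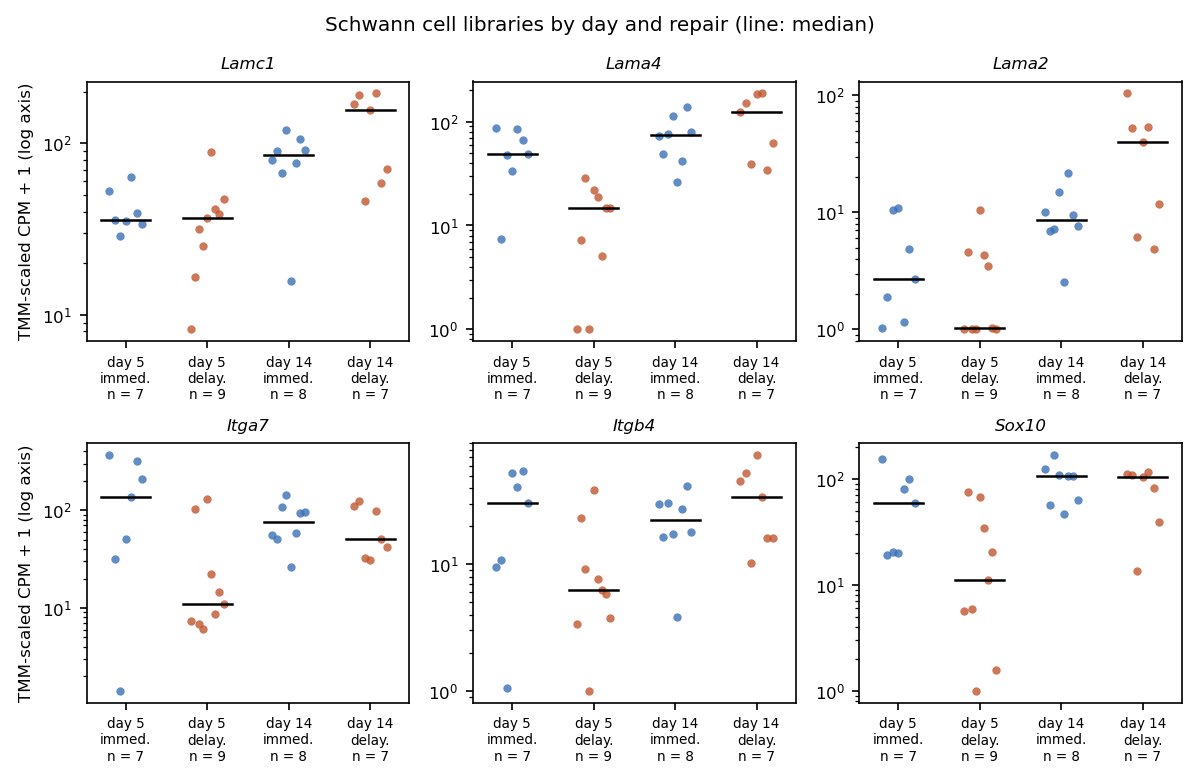
Levels of laminin chains, integrins and Sox10 in each Schwann cell library (points), with the median as a line, by repair group and day, as TMM-scaled CPM + 1 on a log axis. The delayed libraries of day 5 are low in Lama4 (at most 27.9 CPM) and Lama2 (at most 9.56 CPM) and those of day 14 are higher.

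Macrophages were compared between the days in the same way. After immediate repair 7 of 14 members tested were called, 2 higher and 5 lower at day 14, beside 11.3% of all genes, 5.33% higher and 6.01% lower. After delayed repair 4 of 14 were called, 1 higher and 3 lower, beside 6.41% of all genes, 3.28% higher and 3.13% lower. Itgam (chr7:128062640-128118491, plus strand) had 789, 870.5 and 1071 CPM at day 5 and 404, 479 and 577 CPM at day 14 after immediate repair. After delayed repair it had 654, 965 and 1179 CPM at day 5 and 441, 482 and 597 CPM at day 14. The days did not overlap in either group, with log2 fold changes of -0.82 (SE 0.09) and -0.89 (SE 0.13) and edgeR adjusted p of 2.1e-05 and 0.00053. Itgax (chr7:128129547-128150657, plus strand), which encodes CD11c and lies next to Itgam, moved the other way. After immediate repair it had 2.70, 10.8 and 20.7 CPM at day 5 and 27.1, 56.8 and 112 CPM at day 14, without overlap. After delayed repair it had 2.79, 7.95 and 26.4 CPM at day 5 and 25.0, 51.9 and 109 CPM at day 14. The log2 fold changes of Itgax were 2.47 (SE 0.42) and 2.33 (SE 0.42), with an edgeR adjusted p of 0.00213 after delayed repair. After immediate repair Itgax reached 5 CPM in 5 of 8 libraries of day 5, 1 short of the filter, so that value is a description. Among the genes of 10 dendritic cell markers, 3 of 5 tested were also higher at day 14 in each repair group, and their sum had medians of 2740 and 11300 CPM at day 5 and day 14 after immediate repair. These 3 were Cd74, H2-Aa and H2-Ab1, genes of MHC class II that macrophages also express. Ccr7 went the other way, with medians of 24.5 and 5.55 CPM after immediate and 20.3 and 6.92 CPM after delayed repair, and was not called, and the median of Flt3 was at most 0.233 CPM. The part of dendritic cells in the Itgax level was not tested.

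The promoters of these neighbours, which moved in opposite directions, are shown as the 120 bases before each RefSeq start in GRCm38.p6, with matches to GAGGAA or its reverse complement TTCCTC, the box of the myeloid factor PU.1, in capitals. Both lie on the plus strand, at chr7:128062520-128062639 for Itgam and chr7:128129430-128129549 for Itgax.
Itgam: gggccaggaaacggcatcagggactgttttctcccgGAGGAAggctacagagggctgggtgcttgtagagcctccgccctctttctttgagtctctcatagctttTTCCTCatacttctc
Itgax: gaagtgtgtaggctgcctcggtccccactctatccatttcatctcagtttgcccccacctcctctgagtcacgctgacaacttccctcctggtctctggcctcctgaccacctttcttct
The Itgam window held 2 matches, which start 84 and 15 bases before the start site, and the Itgax window held 0. Over all 32851 promoters, 11.6% held a match in this window, and of 26 promoters of 23 members 9 did. A match is given as a description of the letters only.

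The leukocyte beta subunits of the macrophages, Itgb2 and Itgb7, fell with Itgam. Itgb2 had 1043, 1386 and 1757 CPM at day 5 and 727, 1065 and 1321 CPM at day 14 after immediate repair, and 1186, 1502 and 2017 CPM against 848, 1039 and 1270 CPM after delayed repair. Its log2 fold changes were -0.38 (SE 0.12) and -0.46 (SE 0.11), with edgeR adjusted p of 0.0484 and 0.0185. Itgb7, a beta subunit of leukocytes that pairs with α4 and αE, had 90.7, 183 and 229.8 CPM at day 5 and 56.2, 94.7 and 119 CPM at day 14 after immediate repair, a log2 fold change of -0.88 (SE 0.18, edgeR adjusted p = 0.00431). After delayed repair it was -0.98 (SE 0.24, edgeR adjusted p = 0.0177). Itgb1 had 797, 985 and 1102 CPM against 627, 777 and 904 CPM after immediate repair, with a log2 fold change of -0.30 (SE 0.09, edgeR adjusted p = 0.034), and was not called after delayed repair (edgeR adjusted p = 0.61). Itgb5 was not called in either group, with log2 fold changes of 0.13 (SE 0.20) and 0.51 (SE 0.23). With library size scaling, which moved the median of all genes by 0.16 on the log2 scale, 2 members were higher and 3 lower after immediate repair, and Itgb1 and Itgb2 were no longer called.

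Itga4 rose in macrophages after immediate repair, from 7.69, 13.9 and 26.0 CPM at day 5 to 12.6, 28.7 and 40.5 CPM at day 14, with a log2 fold change of 0.91 (SE 0.27, edgeR adjusted p = 0.034). In these libraries the T cell sum had medians of 2.27 CPM at day 5 and 23.4 CPM at day 14, and the dendritic cell sum those of 2740 and 11300 CPM, and their part in the Itga4 level was not tested. Their 1 laminin, Lamc1, fell from 41.2, 80.9 and 131 CPM to 20.8, 43.9 and 72.7 CPM after immediate repair, with a log2 fold change of -0.92 (SE 0.25, edgeR adjusted p = 0.0236), and 8 of 8 libraries of day 14 lay below the day 5 mean. After delayed repair Lamc1 had a log2 fold change of -0.52 (SE 0.26, edgeR adjusted p = 0.264). In the test of whether the day difference depended on repair, 0 of 14 members were called, beside 0.0223% of all genes, and 0 were at an unadjusted p under 0.05, beside 3.61%. Calls that were lost in fits leaving out 1 library were those of Itgb2 in 13, Itgb1 in 10 and Itga4 in 9 of 16 fits after immediate repair.

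**Figure D5:**
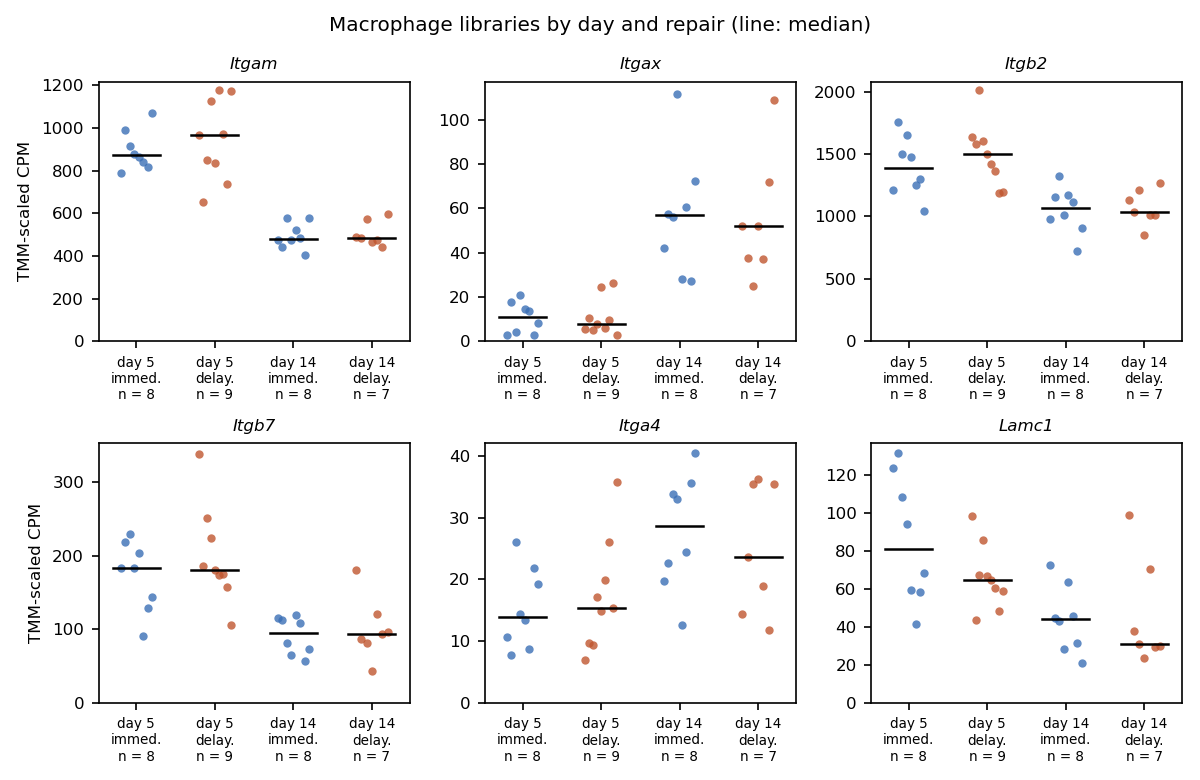
Levels of integrins and Lamc1 in each macrophage library (points), with the median as a line, by repair group and day. Itgam lies between 404 and 597 CPM at day 14 and at or above 654 CPM at day 5 in both repair groups, while Itgax is higher at day 14.

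Delayed and immediate repair were last compared within the sorted cells. In macrophages 0 of 14 members were called by edgeR at day 5, beside 0.0357% of all genes, and 0 of 14 at day 14, beside 0%, with 0 members at an unadjusted p under 0.05 on either day beside 5.17% and 2.21% of all genes. DESeq2 gave 0 on both days. The log2 fold change of Itgam was 0.09 (SE 0.12) at day 5 and 0.03 (SE 0.10) at day 14, and Lamc1 had -0.35 (SE 0.20) and 0.06 (SE 0.31).

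In Schwann cell libraries 0 of 23 members were called at day 5 and 0 of 26 at day 14, beside 0% of all genes on both days, and DESeq2 and limma-voom likewise called 0 members. At an unadjusted p under 0.05 there were 5 members and 5.26% of all genes at day 5, and 1 member and 3.65% of all genes at day 14. At day 5 the 4 laminin chains tested had negative log2 fold changes (median -1.31). Lama4 had 6.45, 47.9 and 84.8 CPM after immediate and 0, 13.6 and 27.9 CPM after delayed repair, with an edgeR p of 0.0213 and an adjusted p of 0.884. Itga7 had 0.414, 135 and 369 CPM against 5.15, 9.99 and 128 CPM, with an edgeR p of 0.0282 and an adjusted p of 0.913. Itgam had 22.3, 51.6 and 80.2 CPM against 29.4, 122 and 443 CPM, with an edgeR p of 0.00565 and an adjusted p of 0.807. Without the libraries low in Sox10, 0 of 23 members were called and 3 were at an unadjusted p under 0.05, beside 0.0108% of all genes called. The log2 fold change was then -2.07 (SE 0.59) for Lama4, -1.55 (SE 1.09) for Itga7 and 1.39 (SE 0.45) for Itgam, with edgeR adjusted p of 0.87, 0.936 and 0.913. In these libraries the Schwann cell sum had medians of 541 CPM after immediate and 118 CPM after delayed repair, and the macrophage sum medians of 593 and 1590 CPM, and their part in these values was not tested.

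At day 14 the 1 member at an unadjusted p under 0.05 was Lama2, with 1.55, 7.59 and 20.5 CPM after immediate and 3.88, 38.8 and 103 CPM after delayed repair, an edgeR p of 0.00475 and an adjusted p of 0.998. Lamc1 had 14.8, 84.2 and 117 CPM against 45.3, 155 and 195 CPM, and Itga7 25.4, 75.7 and 141 CPM against 30.3, 49.5 and 124 CPM. The interaction of repair with day called 0 of 26 members and 0% of all genes, and 4 members were at an unadjusted p under 0.05, beside 4.80% of all genes. The lowest of these p-values was that of Lama4, with a log2 difference of 2.78 (SE 0.97), an edgeR p of 0.00726 and an adjusted p of 0.798. Without the libraries low in Sox10 it was 2.67 (SE 0.71), with an adjusted p in edgeR of 0.388, and 0 members were called. The comparisons between days, between repair groups and between cell types share libraries with each other.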

How the data were processed

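Reads had been trimmed (cutadapt 1.8), freed of rRNA matches in the stump (bowtie2) and aligned with TopHat2 2.1.1 to mm10 and its UCSC gene models, and the authors deposited the resulting estimated counts per gene without scaling. The study ran Cufflinks 2.2.1 with Cuffnorm, with a strand setting where it applied, for FPKM, but which program wrote the deposited counts is not stated. Between 0.951% and 1.18% of the values in a table were not whole and were rounded. The library size was the total count of each library, and every column matched a sample.

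Counts were analysed with edgeR 4.0.16 in R 4.3.3 (TMM scaling, quasi-likelihood test) without covariates, except the repair group in the comparison of cell types. The SE is the fitted log2 fold change over the square root of its F statistic. Correlations used 100000 permutations (scipy 1.17.1), and their p-values were adjusted over all genes, not over the members as first planned, a choice made after seeing the data. Exon lengths and positions are from GENCODE for GRCm38 (mm10), promoters from RefSeq GRCm38.p6. The tests were tested on simulated data.

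Values are given for the members called in the stump, for Lama2, Lama4, Lamb1, Lamc1, Itga6, Itga7, Itgb1, Itgb4, Itgam and Itgb2, for up to 6 called members with the largest change between days and cell types, and for up to 3 genes of each further list. Members and lists were chosen with earlier results of these data known, and others named were chosen after their values were seen. Macrophages and Schwann cells came from the same animals (16 pairs at day 5, r of deviations from -0.0228 to 0.228, and 15 at day 14). Intervals of replicates cover the spread between animals. Alternatives were DESeq2 1.42.0, library size scaling, filterByExpr, no filter, limma 3.58.1 voom with sample weights, sex, the replicate or animal as a block, an unadjusted p, and each library left out. The libraries low in Sox10, and for the day comparisons each library, were left out as alternatives chosen after seeing the data. The stump was directional, the kit of the sorted cells does not mark strand, so that reads of Itga4 and Cerkl, of Itga7 and Mettl7b and of Itga8 and its antisense gene cannot be told apart there, and whether the stump counts used strand is not stated.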

Additional observations from a re-analysis of the deposited data

Results flagged for a closer look

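In groups of 4 to 10 libraries, the highest or lowest library was looked at for each of 20 named members, and 11 of 150 groups had a library standing apart by Dixon's criterion, which chance flags in about 1 in 20 groups. Values are TMM-scaled CPM. The immediate day 14 Schwann cell replicate 5, one of the libraries high in neutrophil genes, was lowest and apart for 4 members. It had 75.2 CPM of Itga5 where the next library had 232, 2.81 CPM of Itgb4 (next 15.3), 10.2 CPM of Lamb1 (next 48.3) and 14.8 CPM of Lamc1 (next 66.5). In the delayed Schwann cell libraries of day 5, replicate 9 had 0.410 CPM of Itga1 (next 9.19) and replicate 3 had 0.0 CPM of Itga6 (next 11.4), and both were low in Sox10. Replicate 2 of the immediate day 5 Schwann cell libraries had 6.45 CPM of Lama4 (next 32.8).

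In the stump, delayed replicate 7 had 265 CPM of Itga7, the next highest delayed library having 124. Among macrophages, delayed day 5 replicate 2 had 301 CPM of Itgb1 (next 702), immediate day 5 replicate 6 had 2.04 CPM of Itgal (next 10.8) and delayed day 14 replicate 8 had 66.5 CPM of Itga9 (next 116).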

How the results depend on the processing

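No called value of a named member changed sign under any alternative run, while values near 0 did, such as that of Lamc1 between repair groups in macrophages of day 14 (0.06, and -0.24 to 0.20 with 1 library left out). The stump count of 12 (7 higher, 5 lower) was 7 with a replicate block (4 and 3), 8 without a filter (3 and 5), 14 with DESeq2 (9 and 5, adding Itgam and Itgax) and 15 with limma-voom (9 and 6). The replicate numbers do not pair the stump samples, with correlations of deviations from -0.245 to 0.114 over 7 pairs. In Schwann cell libraries the 4 members called between days after delayed repair became 2 with the replicate block (Itga1 and Itga7), 1 with limma-voom (Itga1), so that all 3 laminin chains lost their call in both, 1 without the libraries low in Sox10 and 10 at an unadjusted p under 0.05. The 1 called after immediate repair became 2 with DESeq2, 2 with limma-voom and 3 at an unadjusted p. At an unadjusted p the counts of 0 for repair became 5 at day 5 and 1 at day 14, and that for the interaction 4. With p-values adjusted over the members, as first planned, 6 members correlated with Sox10 at day 5 and 5 at day 14, against 3 and 0 over all genes, 2 at day 5 without the libraries low in Sox10, and 0 at day 14 with TMM-scaled CPM over the members. The causes were not tested.

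With 1 library left out, the stump count ran from 6 to 15. It was 7 without delayed replicate 2 or 3 or immediate replicate 3 or 6, and 6 without immediate replicate 2. In macrophages the day count ran from 4 to 7 after immediate repair, with 4 without day 5 replicates 2 or 4 or day 14 replicates 4, 7 or 8, and from 4 to 5 after delayed repair. In Schwann cell libraries it ran from 0 to 2 after immediate repair, with 0 without day 5 replicates 2 or 3 or day 14 replicates 2, 7 or 8, and 2 without replicate 5 of either day. After delayed repair it ran from 1 to 5, with 2 without day 5 replicates 3 or 4 or day 14 replicates 1, 4 or 6, and 1 without day 14 replicate 2. The 4 repair comparisons of sorted cells gave 0 throughout. For single named members, 495 values under the other alternatives had the same direction and side of the threshold and 40 were no longer called, and with 1 library left out these were 335 and 112. With the animal as a block, the cell type comparisons again called 20 and 25 members, with Itgal lost and Itgb1 gained at day 5. Library size scaling moved the median of all genes by 0.25 and 0.37 between cell types, and by 0.18 and 0.20 between days in Schwann cell libraries. Where 3 counts are 0.0974 to 0.769 CPM, lower levels are not detectable in a library.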

Other observations

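Other basement membrane genes of the stump moved in both directions between repair groups. Of 13 partners of laminin tested, 2 were higher and 4 lower after delay, beside 12.8% higher and 13.5% lower over all genes, and the median of their log2 fold changes was 0.10, beside 0.02. Nid1, nidogen, which links laminin to collagen IV, had 916, 1090 and 1517 CPM after immediate and 528, 785 and 971 CPM after delayed repair, a log2 fold change of -0.55 (SE 0.13, edgeR adjusted p = 0.00406). Col18a1 had a log2 fold change of -0.55 (SE 0.14, edgeR adjusted p = 0.0099). Col15a1, a collagen of vessel and nerve basement membranes, was higher, at 402, 535 and 689 CPM against 278, 318.5 and 410.5 CPM (log2 fold change 0.72, SE 0.12, edgeR adjusted p = 0.000385). Of 19 integrin adaptors and activators, 2 were higher and 2 lower, and these 21.1% lie below the 26.3% called over all genes. Ptk2b, a kinase of leukocyte adhesion, rose by 0.67 (SE 0.11, edgeR adjusted p = 0.000436) on the log2 scale, and Lims2, a partner of integrin-linked kinase, fell by 1.03 (SE 0.21, edgeR adjusted p = 0.00184). Of 14 other integrin ligands tested, 4 were higher and 0 lower, 28.6% of the list beside the same 26.3%, among them Thbs1, thrombospondin 1, at 661, 838 and 998 CPM after immediate and 916, 1190 and 1586 CPM after delayed repair (edgeR adjusted p = 0.00335).

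In the Schwann cell libraries after delayed repair, 4 of 11 basement membrane partners tested were higher at day 14 and 0 lower, with a median log2 fold change of 2.57, beside 3.34% higher and a median of 0.03 over all genes. Hspg2, perlecan, had 1.28, 6.86 and 15.8 CPM at day 5 and 11.5, 44.0 and 79.1 CPM at day 14 (log2 fold change 2.78, SE 0.50, edgeR adjusted p = 0.00848). Sparc rose by 2.87 (SE 0.62, edgeR adjusted p = 0.0142) and Col4a1 by 2.57 (SE 0.66, edgeR adjusted p = 0.0274) on the log2 scale. Of 12 dystroglycan complex genes tested 3 were higher, beside the same 3.34%, among them Dag1 with a log2 fold change of 1.84 (SE 0.46, edgeR adjusted p = 0.0246). Whether each gene of both lists reached the filter at day 5 was not examined, so their counts and medians are a description. Spp1, osteopontin, fell from 260, 1085 and 2208 CPM to 109, 285 and 437 CPM (edgeR adjusted p = 0.0124). Without the 4 libraries low in Sox10 these lists held 0 called genes, beside 0.483% of all genes. The log2 fold changes were then 2.51 for Hspg2, 2.54 for Sparc, 2.0 for Col4a1, 1.25 for Dag1 and -1.76 for Spp1, with edgeR adjusted p of 0.0714, 0.0607, 0.209, 0.14 and 0.0579. Between the days the Schwann cell sum went from a median of 118 to 1550 CPM and the fibroblast sum from 603 to 5080 CPM, and their part in these values was not tested.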
